A study of Mus musculus with 20 samples.

Results

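Pcdh11x, Akap12, Tox, Slc8a3, Cit, Efna5, Hrh2, Meis2 and Tshz2 are 9 genes whose transcript levels leaned higher in mouse hippocampus after nicotine. They were picked by symbol after those higher values had been seen. A filter on low counts kept 18873 genes in hippocampus and 17760 in prefrontal cortex. All 9 were found in both count tables and all 9 passed the filter on low counts in both. The nicotine values therefore describe how the genes were chosen and carry no test here. What the choice did not use is their response to lipopolysaccharide (LPS) in prefrontal cortex and how they vary together among libraries that received the same treatment. The size of each gene's spread within the groups did enter the choice, since a test used to choose 8 of them rests on it.

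Poly(A) RNA was sequenced from wild-type (WT) C57/BL6 mice aged 2 to 6 months, an inbred strain with no transgene in any group. Prefrontal cortex (PFC) came from males. LPS, a piece of the bacterial outer membrane that provokes inflammation throughout the body, was given intraperitoneally at 5 mg/kg for 4 PFC libraries. Another 4 libraries came from mice given 0.9% saline, and tissue was taken 24 hours after treatment. Hippocampus was likewise taken 24 hours after treatment. Of its libraries, 6 came from mice given nicotine, which opens nicotinic acetylcholine receptors, at 0.2 mg/kg and 6 from mice given 0.9% saline. Neither the route of nicotine nor the sex of the hippocampal mice is given in the labels. PFC libraries held 36371084 to 46106526 gene counts and hippocampal libraries 51969343 to 68196280. Each tissue was a batch and a table of its own, so the responses were not tested against each other. In 4 of 8 PFC records, Samples 2L, 4L, 6L and 8L, the title contradicts the treatment in the quoted column name, and the groups here follow the column names. Lcn2, an acute-phase gene used as a check of these labels, stood at 0.676 to 13.5 CPM (read counts scaled to a common library size, with TMM factors) in the 4 saline libraries and 254 to 367 CPM in the 4 LPS libraries. Hippocampal libraries expressed dentate granule markers (374 to 798 CPM summed over 10 genes), and PFC libraries expressed neocortical layer markers (623 to 842 CPM summed over 11 genes). The neocortical sum separated the tables, at 353 to 489 CPM in hippocampus, but the dentate sum did not, at 242 to 380 CPM in PFC. Prox1, the defining factor of dentate granule cells, averaged 110 ± 15.4 CPM in hippocampal saline libraries (SD, n = 6) and 11.8 ± 0.944 CPM in PFC saline libraries (SD, n = 4). The female-specific transcript Xist stood at 0.0142 to 0.141 CPM in hippocampal libraries and at 0 to 0.0776 CPM in PFC libraries, which came from males.

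The 9 genes do not form a known pathway. They encode proteins of cell contact, second messenger signalling, calcium transport, cytokinesis and transcription, and in forebrain several are known as regional or layer-restricted genes. In bulk tissue a level depends both on the cells dissected and on the transcript content of each cell, and fewer cells of a type cannot be told apart from less RNA per cell.

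Among surface molecules, Pcdh11x (chromosome X, 120290259 to 120910619, plus strand, mm10) encodes a protocadherin, a homophilic adhesion protein of neurons. Efna5 (chromosome 17, 62604184 to 62881317, minus strand) encodes ephrin-A5, a membrane-anchored guidance ligand of EphA receptors, and Hrh2 (chromosome 13, 54192129 to 54236180, plus strand) the histamine H2 receptor, which raises cyclic AMP. Akap12 (chromosome 10, 4266380 to 4359470, plus strand) encodes a scaffold that tethers protein kinase A, the cyclic AMP-dependent kinase. Slc8a3 (chromosome 12, 81197915 to 81333180, minus strand) encodes the sodium-calcium exchanger NCX3, which extrudes calcium from neurons, and Cit (chromosome 5, 115845278 to 116008947, plus strand) encodes citron kinase, a protein of cytokinesis that also has a neuronal form. Tox (chromosome 4, 6686353 to 6991557, minus strand), Meis2 (chromosome 2, 115863064 to 116065839, minus strand) and Tshz2 (chromosome 2, 169633013 to 170071816, plus strand) encode an HMG-box factor, a TALE homeobox factor and a teashirt zinc finger factor. Annotated antisense genes overlap Hrh2, Slc8a3 and Tox, and noncoding or predicted genes overlap Tshz2, Cit and Pcdh11x, the last with 1 coding gene, H2afb3, on the other strand. The strand setting of the counting is not given in the sources used here, so reads of such partners cannot be told apart from those of the gene.

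RefSeq start sites (GRCm38.p6) gave upstream windows for 6 of the 9 genes and none for Pcdh11x, Akap12 and Tox. The 3 windows below are shown because Slc8a3 and Hrh2 were lower with LPS and Tshz2 had the widest spread among hippocampal libraries. Each is the 250 bases before the start on the gene's own strand, at chr12:81333181-81333430 (minus strand), chr13:54191879-54192128 (plus) and chr2:169632259-169632508 (plus).
Slc8a3: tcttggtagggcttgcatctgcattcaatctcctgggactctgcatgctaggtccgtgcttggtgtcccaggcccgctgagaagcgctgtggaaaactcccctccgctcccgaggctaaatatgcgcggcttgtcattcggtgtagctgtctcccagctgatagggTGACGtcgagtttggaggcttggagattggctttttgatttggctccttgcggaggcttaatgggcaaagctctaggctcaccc
Hrh2: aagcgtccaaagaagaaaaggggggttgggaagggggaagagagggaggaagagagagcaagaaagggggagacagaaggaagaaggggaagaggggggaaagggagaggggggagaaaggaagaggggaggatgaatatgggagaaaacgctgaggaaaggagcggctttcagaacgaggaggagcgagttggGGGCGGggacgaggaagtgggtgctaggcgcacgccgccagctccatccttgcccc
Tshz2: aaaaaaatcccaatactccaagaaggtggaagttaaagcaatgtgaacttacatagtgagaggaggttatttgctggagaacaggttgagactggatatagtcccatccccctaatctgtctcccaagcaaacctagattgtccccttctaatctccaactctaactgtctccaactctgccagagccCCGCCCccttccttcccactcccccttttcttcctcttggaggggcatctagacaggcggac
Capitals mark a match on either strand to the CRE half-site TGACG in Slc8a3 and to the GC box GGGCGG in Hrh2 and Tshz2. The half-site is bound by cyclic AMP-responsive factors and the GC box by Sp factors, and 17.8% and 32.7% of all 32851 windows of this length hold them. The E-box CACGTG, the AP-1 motif TGANTCA, the MEIS motif TGACAG and the kappa B motif, searched on both strands, had no match in these 3 windows. A match in such a window describes its letters only.

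In hippocampus the 9 genes stood 1.26 to 1.63 times as high with nicotine as with saline, on the ratio of group means. Of the surface molecules, Pcdh11x ranged from 7.94 to 10.0 CPM with saline (median 9.17, n = 6) and from 10.7 to 13.1 with nicotine (median 12.5, n = 6). Hrh2 ranged from 6.82 to 7.97 CPM (median 7.60) and from 8.59 to 9.90 (median 9.78). For both genes every nicotine library lay above every saline library. Efna5 ranged from 8.69 to 12.2 CPM with saline (median 9.56) and from 12.0 to 14.8 with nicotine (median 13.0), and saline library 4N reached into the nicotine range.

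The scaffold gene Akap12 ranged from 19.1 to 24.5 CPM with saline (median 19.6) and from 24.0 to 32.1 with nicotine (median 27.6). Slc8a3 ranged from 15.2 to 21.6 CPM (median 18.5) and from 21.9 to 28.2 (median 23.2). Cit ranged from 59.2 to 85.8 CPM (median 63.4) and from 76.5 to 118 (median 103). The groups were separate for Slc8a3, whereas saline library 5N overlapped the lowest nicotine libraries for Akap12 and Cit. In all 3 genes library 5N was the highest of the saline group.

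Among the transcription factors, Tox ranged from 13.4 to 16.6 CPM with saline (median 15.2) and from 16.9 to 23.7 with nicotine (median 20.2), with no overlap. Meis2 ranged from 48.6 to 72.5 CPM (median 52.1) and from 53.0 to 88.0 (median 83.3). Tshz2 ranged from 52.9 to 96.3 CPM (median 61.6) and from 50.3 to 163 (median 113). For Meis2 and Tshz2, nicotine library 9N lay inside the saline range, and library 10N held the lowest Tshz2 level of all 12 libraries.

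**Figure D1:**
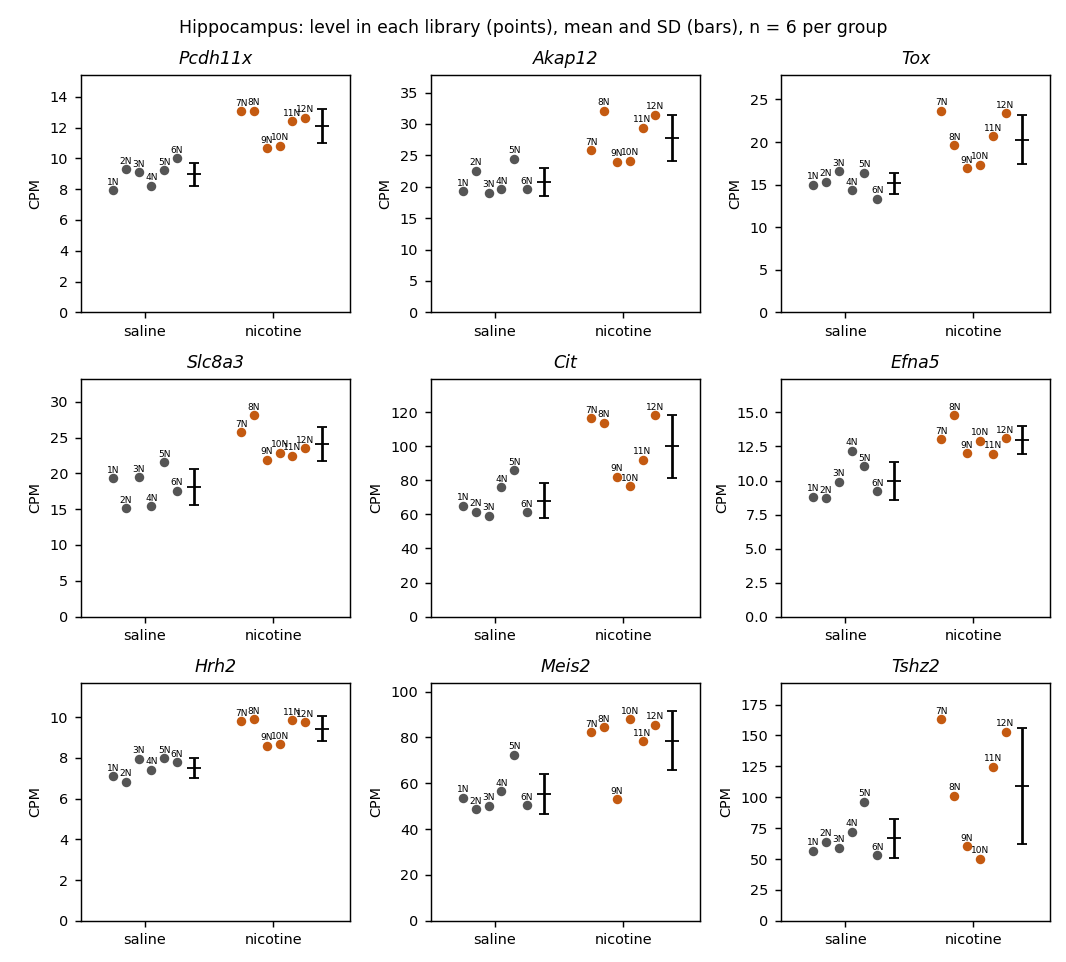
Level of each gene in each hippocampal library, in CPM on a linear axis from 0, with the library name at each point and the mean and SD of each group as a bar (n = 6 per group). Pcdh11x, Tox, Slc8a3 and Hrh2 show separate groups, while the groups of Akap12, Cit, Efna5, Meis2 and Tshz2 overlap.

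In edgeR's fit the log2 differences, nicotine minus saline, ran from 0.33 (SE 0.08) for Hrh2 to 0.70 (SE 0.25) for Tshz2. The median over all genes tested was 0.00. In DESeq2 on all genes, the fit used in the choice, Hrh2 stood at 0.33 (SE 0.07) and Tshz2 at 0.71 (SE 0.29). Groups did not overlap for 4 of the 9, Pcdh11x, Tox, Slc8a3 and Hrh2, where 0.17% of all 18873 genes had nicotine ranges entirely above saline, and nothing is read from this because the genes were chosen on it. DESeq2 run on all genes, as in the choice, called 8 genes higher at an adjusted p under 0.05, or 0.055% of 14533 with an adjusted p, and these were the 9 without Tshz2 (0.351). Efna5 lay just inside that threshold (0.0495), and Epb41l3, a membrane cytoskeleton gene that is not among the 9, just outside (0.0684, log2 0.28). With edgeR's quasi-likelihood test 0 of 18873 genes passed in either direction (0% of those tested), 1577 had an unadjusted p under 0.05 (8.36%), and limma-voom also called 0.

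Within treatment groups the 9 genes varied together across hippocampal libraries. Each level was expressed as a deviation of log2 CPM from the mean of its treatment group, so that the difference used to choose the genes was removed. All 36 pairs of the 9 genes had a positive Pearson correlation over the 12 libraries, 20 of them above 0.5, with a median of 0.50. Over all pairs of the 18873 genes the median was 0.00, 49.7% were positive and 10.9% lay above 0.5. The points of a pair share the library, its depth and its dissection, so the correlations are given as descriptions without a p. The 36 pairs share 9 genes and are not independent. Here and in PFC, the pairs of all genes were not matched to the 9 genes for level.

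The closest pairs were Tox with Tshz2 (r = 0.87) and Cit with Tshz2 (r = 0.86), and the loosest was Pcdh11x with Efna5 (r = 0.07). Cit and Tshz2 had the highest median correlation with the other 8 genes (0.62 each), and Efna5 (0.30) and Slc8a3 (0.36) the lowest. Among saline libraries alone 30 of 36 pairs were positive (median 0.34), and among nicotine libraries alone 36 of 36 (median 0.58). Without nicotine library 9N 34 pairs stayed positive, with 12 above 0.5 and a median of 0.37. Without saline library 5N all 36 did, with 13 above 0.5 and a median of 0.42.

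**Figure D2:**
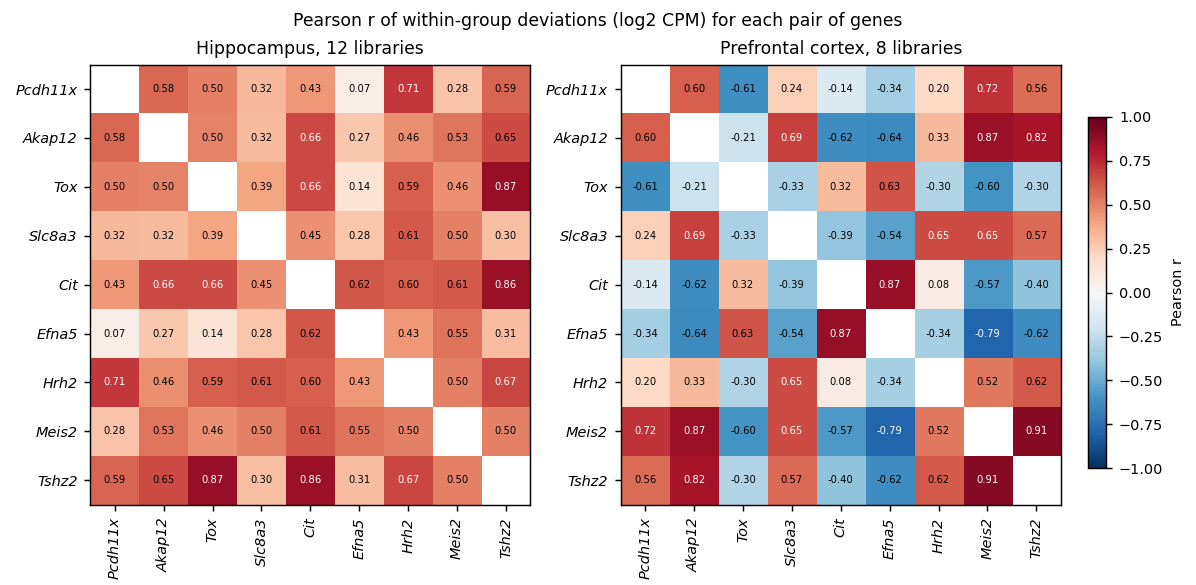
Pearson correlation of within-group deviations (log2 CPM) for each pair of the 9 genes, over 12 hippocampal libraries (left) and 8 PFC libraries (right), on a colour scale from -1 (blue) to 1 (red). All 36 hippocampal pairs are positive, while the PFC panel shows 19 positive and 17 negative pairs.

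Averaged over the 9 genes, saline library 5N stood 0.25 above its group mean on the log2 scale, and all 9 genes were above the mean there. Nicotine libraries 9N and 10N stood at -0.28 and -0.21, with 0 and 1 of 9 genes above the mean. Nicotine libraries 7N, 8N and 12N stood at 0.16, 0.13 and 0.17, with 8 of 9 genes above the mean in each. The remaining libraries lay between -0.08 and 0.03. The nicotine group thus held 3 libraries high in most of the 9 genes and 2 libraries low in nearly all of them.

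Regional marker genes moved with this average. Of 16 marker lists, each taken as the mean of its genes, that of the 11 neocortical layer markers followed it most closely. Over the 12 hippocampal libraries it had r = 0.91 and rho = 0.92, and r = 0.82 without the 2 libraries farthest from the median of the markers. The 4 CA3 pyramidal markers, genes of the hippocampal field that receives mossy fibres, ran opposite (r = -0.87, rho = -0.88, and r = -0.82 without 2 libraries). The other 14 lists had r between -0.42 and 0.45, with dentate granule markers at -0.01 and choroid plexus markers at 0.12. Without the 2 libraries farthest from each list's median, these 14 ran from -0.56 (oligodendrocyte) to 0.53 (thalamic). Dentate granule markers then stood at -0.48 and choroid plexus markers at -0.33, so their values near 0 rest on those libraries. The neocortical and CA3 relations held within each group. They were 0.87 with saline and 0.97 with nicotine for neocortical markers, and -0.81 and -0.91 for CA3 markers. The lists were compared after the co-variation had been seen, and these points again share library and dissection.

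**Figure D3:**
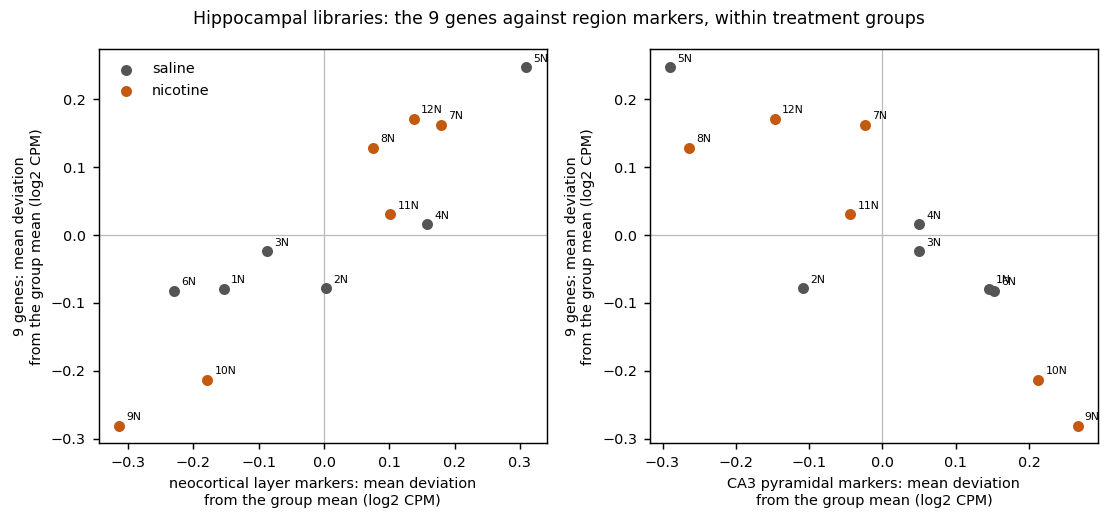
Mean deviation of the 9 genes from the group mean (vertical axis, log2 CPM) against that of neocortical layer markers (left) and CA3 pyramidal markers (right), 1 point per hippocampal library, grey for saline and orange for nicotine. Library 5N is highest and 9N lowest on the vertical axis, and the points slope upward for neocortical markers and downward for CA3 markers.

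Single genes followed the neocortical markers to different degrees. Tshz2 (r = 0.88) and Cit (r = 0.86) were closest, then Meis2 and Tox (0.73 each) and Akap12 (0.70). Pcdh11x (0.42) and Slc8a3 (0.29) were the least close. Akap12 ran most nearly opposite to the CA3 markers (r = -0.94) and Efna5 the least so (r = -0.43). The neocortical list was itself mixed. Cux2, an upper-layer factor named after its value was seen, had r = 0.91 with the list mean. Ccn2 (0.90) and Nxph4 (0.88), also named after their values were seen, were close to it. Etv1, a deep-layer factor and the most abundant marker of the list, had r = -0.43, and Tle4, the next most abundant, 0.34. Fezf2 (-0.40) and Rorb (0.23) were also low. The list mean therefore does not stand for all 11 genes.

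The neocortical markers also leaned higher with nicotine. Their summed level was 353 to 448 CPM in saline and 396 to 489 CPM in nicotine libraries, 10 of 11 had a positive log2 difference (median 0.27), 0 passed edgeR's test and 3 had an unadjusted p under 0.05. None of the 11 was at 0. CA3 markers summed to 145 to 199 CPM with saline and 149 to 186 with nicotine, and 0 of 4 had a positive difference. Dentate granule markers summed to 558 to 798 CPM with saline and 374 to 669 with nicotine, with 0 of 10 positive (median -0.32, 0 called, 8 with an unadjusted p under 0.05). With the neocortical marker mean as a covariate, added after seeing the data, the nicotine difference was 0.01 for Tshz2, 0.28 for Cit and 0.25 for Tox, against 0.70, 0.55 and 0.42 without it, and 0.28 for Meis2 and 0.26 for Akap12, against 0.50 and 0.42. It was 0.36 for Pcdh11x, 0.34 for Slc8a3, 0.26 for Efna5 and 0.26 for Hrh2, against 0.43, 0.41, 0.38 and 0.33. With the CA3 marker mean as the covariate, also added after seeing the data, the difference was 0.27 for Tshz2, 0.36 for Cit and 0.27 for Akap12, and 0.27 to 0.37 for the other 6 genes. After regression on the neocortical markers 27 of 36 pairs of genes were positive, with a median of 0.17 and 4 above 0.5. The part of dissection in the nicotine values was not tested.

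The genes outside the 9 whose deviations were most like their average, out of 14885 with a mean of at least 1 CPM, were C77080, Pth1r, Adcy8 (r = 0.95 each), Hivep1, Cobl, Sgpp2 (0.94 each), Olfm2 and Klf5 (0.93 each). Pth1r encodes the parathyroid hormone receptor, Adcy8 a calcium-stimulated adenylyl cyclase and Klf5 a Krüppel-like factor. Their log2 nicotine differences ran from 0.11 for Pth1r to 0.59 for Klf5. The least like were St7l (r = -0.90), Lrrc10b and Klk8 (-0.86 each) and Enox2 (-0.84), and the median over the 14885 genes was 0.01.

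In prefrontal cortex, 24 hours after LPS, 1 of the 9 genes rose, 3 fell and 5 did not pass the test. Akap12 was 2.91-fold higher, and Slc8a3, Hrh2 and Meis2 fell to 0.708, 0.678 and 0.801 of the saline level in edgeR's fit. Among all 17760 genes tested 21.5% were called higher and 19.7% lower, or 41.2% in all, so 4 of 9 is near the share of the whole table. The median log2 change of all genes tested was 0.01 and the median of the 9 genes was -0.22. Fold changes below are LPS minus saline on the log2 scale from edgeR's quasi-likelihood test, with p adjusted over all genes by Benjamini-Hochberg.

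Akap12 stood at 46.6, 33.1, 41.5 and 39.1 CPM in saline Samples 1L, 3L, 6L and 8L and at 62.7, 111, 155 and 137 CPM in LPS Samples 2L, 4L, 5L and 7L. Every LPS library was above every saline library, and Sample 2L was the lowest of the LPS group. The change was 1.54 (SE 0.22, 95% confidence interval 1.05 to 2.03, edgeR adjusted p = 0.000321). Endothelial markers summed to 162 to 182 CPM with saline and 152 to 178 with LPS, and peripheral leukocyte markers to 3.46 to 6.04 and 7.89 to 11.8 CPM. Of the leukocyte list 3 of 7 genes were measured and 2 rose, and the part of such cells in the Akap12 change was not tested.

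Slc8a3 stood at 58.4, 51.4, 57.1 and 51.7 CPM in saline Samples 1L, 3L, 6L and 8L and at 36.8, 38.5, 39.4 and 39.9 CPM in LPS Samples 2L, 4L, 5L and 7L. The LPS libraries were closely grouped below all saline libraries. The change was -0.50 (SE 0.07, interval -0.66 to -0.34, edgeR adjusted p = 0.000400). Hrh2 stood at 17.1, 12.4, 20.6 and 16.8 CPM with saline and 10.9, 11.6, 11.0 and 11.8 CPM with LPS, in the same order of libraries. Its groups were separate too, by a narrow margin at saline Sample 3L, and the change was -0.56 (SE 0.14, interval -0.87 to -0.25, edgeR adjusted p = 0.00789). Separate ranges with LPS lower were found for 17.9% of all genes tested, and with LPS higher for 19.2%.

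Meis2 stood at 505, 474, 595 and 508 CPM in saline Samples 1L, 3L, 6L and 8L and at 332, 396, 465 and 475 CPM in LPS Samples 2L, 4L, 5L and 7L. LPS Sample 7L reached the lowest saline library. The change of -0.32 (SE 0.11, edgeR adjusted p = 0.0387) was lost when any of 5 libraries was left out (saline 1L, 6L and 8L, LPS 2L and 4L, adjusted p = 0.0573 to 0.0979), and it was called in 10 of 18 alternatives, over which the adjusted p ran from 0.0136 to 1.00. In the 4 libraries whose labels agree Meis2 differed by -0.07 (adjusted p = 0.676) and Hrh2 by -0.38 (adjusted p = 0.129). Markers of striatum, where Meis2 is abundant, summed to 382 to 1618 CPM with saline and 483 to 2058 CPM with LPS, and with them as a covariate the Meis2 change was -0.31 (adjusted p = 0.0474). Grouped by title instead of column name, 0 genes of the whole table passed and none of the 4 calls stood.

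The other transcription factor genes did not pass. Tshz2 stood at 51.5, 45.1, 56.6 and 56.2 CPM with saline and at 36.5, 42.2, 47.2 and 50.7 CPM with LPS, a difference of -0.25 (interval -0.49 to 0.00, edgeR adjusted p = 0.0951). Tox stood at 37.7, 31.0, 23.9 and 38.8 CPM and at 40.1, 40.5, 34.4 and 35.0 CPM, a difference of 0.19 (interval -0.11 to 0.50, edgeR adjusted p = 0.292). The ranges of the groups overlapped for both genes. Tshz2 passed without saline Sample 3L (adjusted p = 0.0439) or LPS Sample 7L (0.0393).

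Pcdh11x, Cit and Efna5 likewise overlapped between the groups. Pcdh11x stood at 18.7, 20.5, 24.1 and 21.2 CPM with saline and at 15.4, 16.0, 23.7 and 17.6 CPM with LPS (-0.22, interval -0.53 to 0.09, edgeR adjusted p = 0.236). Without Sample 5L, its only LPS library among the saline values, the difference was -0.38 (adjusted p = 0.0284). Cit stood at 171, 159, 172 and 190 CPM and at 193, 145, 158 and 137 CPM (-0.13, interval -0.35 to 0.10, edgeR adjusted p = 0.347). Efna5 stood at 24.8, 23.5, 20.8 and 26.2 CPM and at 25.6, 19.4, 20.8 and 17.7 CPM (-0.19, interval -0.46 to 0.08, edgeR adjusted p = 0.247). In both Cit and Efna5 Sample 2L was the highest LPS library, and without it they differed by -0.24 (adjusted p = 0.0275) and -0.30 (adjusted p = 0.0308).

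**Figure D4:**
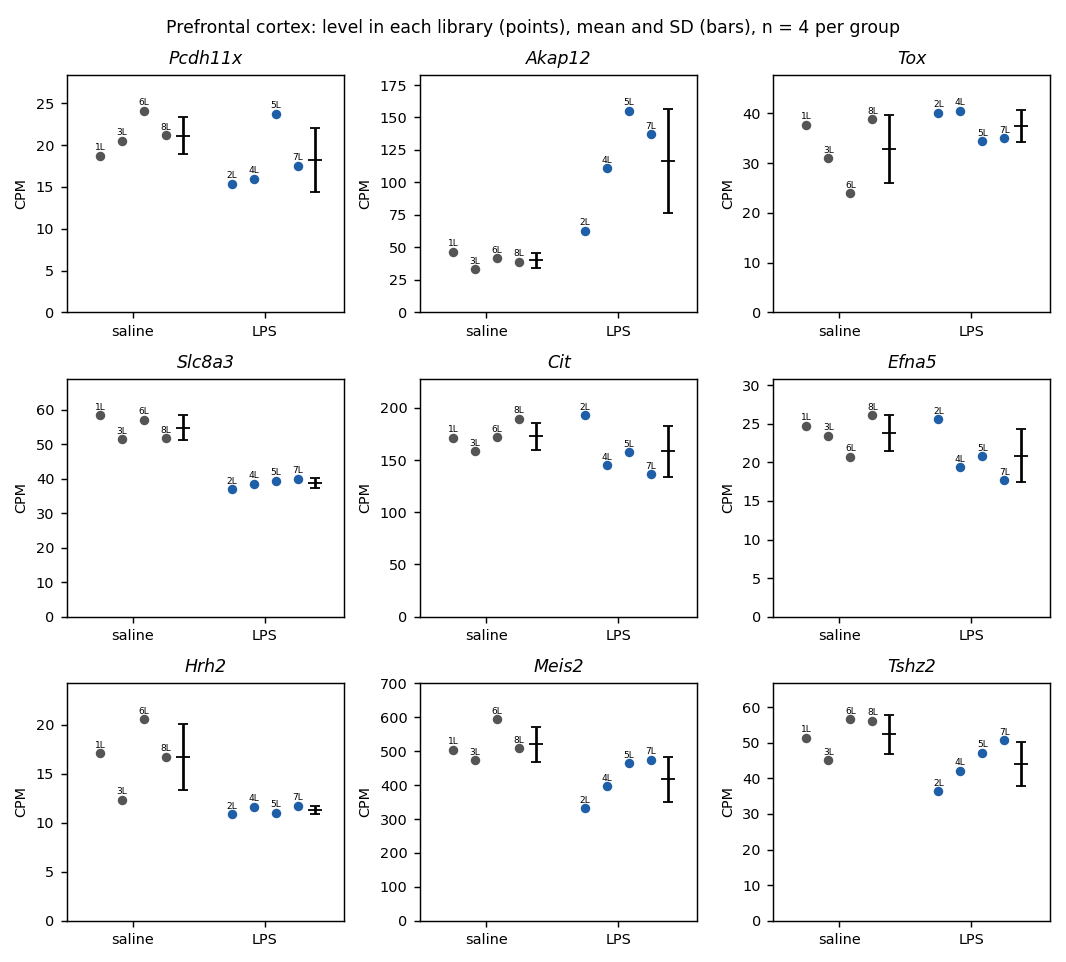
Level of each gene in each PFC library, in CPM on a linear axis from 0, grouped by column name, with the library name at each point and the mean and SD of each group as a bar (n = 4 per group). Akap12 with LPS lies above all saline libraries, Slc8a3 and Hrh2 lie below them, and the groups overlap for the other 6 genes.

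The 9 genes did not vary together in PFC as they did in hippocampus, although this difference was not tested. Of 36 pairs 19 were positive over the 8 libraries, with a median of 0.14, 14 above 0.5 and 8 below -0.5, where 49.9% of all gene pairs were positive and 15.9% lay above 0.5. Pcdh11x, Akap12, Slc8a3, Hrh2, Meis2 and Tshz2 were positive with each other in 15 of 15 pairs (0.20 to 0.91), and Tox, Cit and Efna5 in 3 of 3 (0.32 to 0.87), but only 1 of 18 pairs between these sets was positive. This split was made after the correlations were seen and carries no test. The closest pair was Meis2 with Tshz2 (r = 0.91) and the most opposed Efna5 with Meis2 (r = -0.79). Without Sample 2L 25 pairs were positive. Over the 8 PFC libraries the neocortical markers had r = 0.01 with the mean of the 9 genes, but r = 0.69 without the 2 libraries farthest from their median, so this value rests on those libraries. The CA3 list, named for a hippocampal field, ran opposite to the mean of the 9 genes in PFC (r = -0.72, and -0.68 without 2 libraries). Microglia markers did as well (-0.74, and -0.46). The CA1 list (r = 0.88, and 0.91) and inhibitory neuron markers (0.84, and 0.68) ran with that mean. Single genes were mixed, since Tox (r = 0.63), Efna5 (0.45) and Cit (0.11) ran with the CA3 list and the other genes opposite to it.

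Per kilobase of merged exons, the genes kept partly different orders in the tissues. With saline, hippocampal levels in CPM per kb were highest for Tshz2 (8.59 ± 2.04, SD, n = 6), then Meis2 (4.60 ± 0.735), Cit (4.15 ± 0.642), Slc8a3 (3.39 ± 0.473) and Akap12 (3.21 ± 0.343). Efna5 (2.47 ± 0.344), Tox (1.99 ± 0.161), Hrh2 (1.26 ± 0.0801) and Pcdh11x (0.643 ± 0.0544) followed. From Meis2 to Akap12, and from Efna5 to Tox, neighbours differed by less than the sum of their SDs. In PFC Meis2 was far above the rest (43.2 ± 4.31 CPM per kb, SD, n = 4), followed by Cit (10.5 ± 0.778), Slc8a3 (10.25 ± 0.677), Tshz2 (6.73 ± 0.691), Akap12 (6.20 ± 0.868), Efna5 (5.90 ± 0.571), Tox (4.32 ± 0.905), Hrh2 (2.81 ± 0.567) and Pcdh11x (1.52 ± 0.160). There Cit and Slc8a3, and neighbours from Tshz2 to Efna5, differed by less than the sum of their SDs. Pcdh11x and Hrh2 were the lowest of the 9 per kb in both tables, which were scaled separately.

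Relatives of the 9 genes were described from 7 lists that exclude them. Of 78 relatives 76 were measured in PFC, where 22 rose and 11 fell with LPS, beside 21.5% and 19.7% of all genes tested, so the relatives together were called about as often as the whole table (41.2%). In hippocampus 76 were measured, and edgeR called 0 in either direction with nicotine. Of these 76, 11 had an unadjusted p under 0.05, a larger share than the 8.36% of all genes, a difference that was not tested. The counts of each list below are small and are read against the same shares. The named relatives below are those with the smallest p for LPS in each list, and their edgeR adjusted p lay between 4.06e-05 and 0.00328. Of 8 delta-protocadherins, relatives of Pcdh11x, 0 rose and 2 fell, Pcdh20 from 39.1 ± 7.38 to 15.6 ± 1.94 CPM (SD, n = 4 each, log2 change -1.33) and Pcdh18 (-0.87). Of 12 measured ephrin-A ligands and EphA receptors 4 rose and 2 fell, among them the receptor genes Epha4 (0.77) and Epha3 (-0.96).

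In the histamine list, 2 of 4 measured genes rose and 1 fell beside the fall of Hrh2. The H1 receptor gene Hrh1 went from 13.2 ± 1.51 to 4.49 ± 2.05 CPM (log2 change -1.55), and Hdc, the enzyme that makes histamine, from a range of 0.613 to 0.949 CPM to one of 1.68 to 3.16 CPM (1.61). Of 15 A-kinase anchoring proteins and protein kinase A subunits, partners of Akap12, 4 rose and 1 fell, with the anchoring protein genes Akap11 at 0.50 and Akap8 at 0.78. Their changes were smaller than the 1.54 of Akap12, a difference that was not tested.

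Calcium extrusion genes other than Slc8a3 included 4 that rose and 0 that fell of 11, beside 21.5% and 19.7% of all genes. Slc24a2, a potassium-dependent sodium-calcium exchanger, went from 359 ± 49.2 to 649 ± 76.2 CPM (log2 change 0.85), and Atp2b1, a plasma membrane calcium pump, from 694 ± 24.7 to 984 ± 51.6 CPM (0.51). Of 11 related kinases and cytokinesis partners of Cit 2 rose and 0 fell, Racgap1 (0.56) and Cdc42bpb (0.32). Of 15 TALE homeobox, teashirt and TOX factors 6 rose and 5 fell. Meis1, the closest relative of Meis2 in the list, went from 18.3 ± 4.29 to 8.04 ± 2.21 CPM (-1.19).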

How the data were processed

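The authors deposited a table of unnormalized read counts for each tissue, with genes down and libraries across. RNA was extracted with TRIzol and poly(A) libraries were prepared with a Universal Plus mRNA-Seq kit, per the labels' protocols. The submitters' processing notes list featureCounts, STAR, fastp and DESeq2, each without a version, with mm10 as the build. Which gene annotation was counted, and whether by strand, is not given in the sources used here. Of 57180 Ensembl identifiers of the hippocampal table, 51884 matched GENCODE vM21, which also gave coordinates and exon lengths. All count columns belonged to libraries of the series, and the lowest chi-square per degree of freedom between libraries of 1 group was 11.0, over genes with at least 20 counts.

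The 9 genes, the 7 lists of relatives, the 16 marker lists and the naming rules were chosen with earlier results of these data known. Each tissue was fitted alone in R 4.3.3 with edgeR 4.0.16 (TMM factors, filterByExpr, quasi-likelihood F-test, Benjamini-Hochberg adjustment over all genes tested, threshold 0.05). No covariate or block was used. Levels are TMM-scaled CPM, and correlations used log2 CPM with a prior count of 0.5, centred on the group mean. Named genes were the 9, up to 2 relatives a list with the smallest p for LPS, the 8 most and 4 least like the mean of the 9, up to 2 abundant markers of a described list, Lcn2, and genes named as lower with nicotine in earlier work. Other names were chosen after their values were seen. A gene that these rules name is not reported here. The labels call the libraries biological replicates without naming animals, so a p-value reflects how far these libraries spread, which may be technical. Whether the same replicate number in 2 groups marks paired libraries is not known, and the values are given with the alternatives. The edgeR calls and the correlations of deviations were tested on simulated data.

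Alternatives were DESeq2 1.42.0, limma-voom 3.58.1, RLE and upper-quartile factors, no filter or a filter of 1 CPM, each library left out, a replicate block, marker covariates, grouping by title, the 4 PFC libraries whose labels agree, and the hippocampal libraries without the 4 richest in choroid plexus transcripts. DESeq2 on all genes and the neocortical and CA3 covariates were added after seeing the data.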

Additional observations from a re-analysis of the deposited data

Results flagged for a closer look

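Meis2 stood apart in 1 library of each hippocampal group. In saline library 5N it was 72.5 CPM, where the next highest saline library had 56.6 and the lowest 48.6, so that the gap took 0.667 of the range of the 6 libraries, above Dixon's critical value. In nicotine library 9N it was 53.0 CPM, where the next lowest had 78.3 and the highest 88.0, a gap of 0.724 of the range. These were 2 of 36 combinations of gene and group examined, and chance alone gives about 1 in 20. Library 5N was also the highest saline library for Akap12, Slc8a3, Cit, Hrh2 and Tshz2, and 9N the lowest nicotine library for Pcdh11x, Akap12, Tox, Slc8a3 and Hrh2.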

How the results depend on the processing

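The LPS calls rest on the column names, by which Lcn2 separated the groups (0.676 to 13.5 CPM with saline, 254 to 367 CPM with LPS). By title each group held libraries from both of these ranges. Grouping by title called 0 genes in all, 0 of the 9 higher and 0 lower, and turned the direction of Pcdh11x (0.29), Tox (-0.18), Slc8a3 (0.0235), Hrh2 (0.21), Meis2 (0.26) and Tshz2 (0.27). With the 4 libraries whose labels agree 1 of the 9 was called lower, and Pcdh11x (0.0632) and Tshz2 (0.00918) turned direction. Over each PFC library left out, the calls were 5703 to 8481 genes in all, 1 to 1 of the 9 higher and 2 to 4 lower. Akap12 and Slc8a3 were called in 17 of 18 alternatives, all but grouping by title, Hrh2 in 16 and Meis2 in 10.

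For nicotine DESeq2 called 15 genes in all, on filtered or on all genes, and edgeR 1 without the 4 choroid-rich libraries and 0 to 1 with each library left out (1 without nicotine library 5, which is 11N). All 9 nicotine differences stayed above 0 in each of 25 alternatives, down to 0.01 for Tshz2 with the neocortical covariate. Nothing is read from this, because the genes were chosen for higher values in these same libraries. Positive pairs of the 9 numbered 27 to 36 in hippocampus and 18 to 25 in PFC over the alternatives run.

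Deviations of same-numbered libraries had r = -0.16 to 0.41 in hippocampus and -0.15 to -0.02 in PFC. Of the saline libraries, 1 of 6 and 0 of 4 were closest to their own number. The numbers were taken from the titles, and in PFC 4 of 8 titles contradict the column names. These few values cannot tell whether libraries were paired. With the replicate block 6064 genes were called in PFC and 0 in hippocampus, and Meis2 was not called (-0.33, adjusted p = 0.0901). With 4 libraries a group the 95% intervals of Pcdh11x, Tox, Cit and Efna5 include 0, which does not show that they did not change.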

Other observations

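Genes that leaned lower with nicotine in the same libraries, named in earlier work on these data, were set beside the mean within-group deviation of the 9 genes over the 12 hippocampal libraries. Plk5, a polo-like kinase of brain, had r = -0.05 with that mean, at group means of 19.5 CPM (saline) and 11.7 CPM (nicotine). Rasl10a, a Ras-like gene, stood at 39.7 and 29.5 CPM (r = -0.31), Calb1, the calcium buffer calbindin, at 127 and 101 CPM (r = -0.20), and Synpr, the vesicle protein synaptoporin, at 107.5 and 81.3 CPM (r = -0.10).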
